A study of Mus musculus with 2 samples.

Results

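The 6 mouse genes Ms4a4a, Ms4a4c, Ms4a6b, Ms4a6c, Ms4a6d and Ms4a7 encode tetraspan membrane proteins of the MS4A family, named for their membrane-spanning domains. They were taken by symbol from a table of 34295 genes. They were selected on their TPM in these same libraries, high in the macrophage and low in the fibroblast one, so their levels and ratios are a description and no test was made of them. The table held 19 genes whose symbol begins with Ms4a, and the 13 others are described as the nearest comparison.

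Poly(A) RNA from 2 wild-type primary cultures of C57BL/6J mice was compared, with 1 library each. The macrophage library (BMDM) came from bone marrow cells kept in medium with 10% serum and 30% L929-conditioned medium, lifted on day 6, plated again and collected the next day from wells seeded with 750000 cells. The fibroblast library (MEF) came from E13.5-E14.4 embryos without head and red organs. It was cleared of CD45-, CD11b- or F4/80-bearing cells by sorting, used at passage 4 to 7 in medium with 10% serum, and labelled as 100000 cells. Neither culture was treated further, and the number of mice or embryos behind each is not stated. Cell type, medium, cell number and preparation differ together between the libraries and cannot be told apart.

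MS4A proteins cross the membrane several times and sit at the surface or in inner membranes, where several of them bind other receptors and change their signalling or recycling. The best known are CD20, encoded by Ms4a1 and used as a B cell marker, and the beta chain of the high-affinity IgE receptor, encoded by Ms4a2 in mast cells and basophils. Ms4a3 is used as a marker of granulocyte and monocyte progenitors, and Ms4a4b is known from mouse T cells. In humans MS4A4A is a surface protein of macrophages that associates with the fungal receptor dectin-1 and is tied to shedding of TREM2. Ms4a7 is used in mouse brain to tell border macrophages and marrow-derived cells from microglia. For Ms4a4c, Ms4a6b and Ms4a6c no molecular role is given here.

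All values are TPM, shares of all transcripts that are scaled by transcript length, so that levels can be set side by side between genes. They summed to 999609 in the BMDM library and 999545 in the MEF library. TPM keep no read depth, so no counting interval or detection limit can be given, and an exact 0 may be a failed estimate and is written as listed at 0. With a single library for each cell type, values stand without an error and comparisons without a p-value. The size rule used below calls a gene higher in one culture when TPM plus 1 differed by 4-fold or more (a log2 ratio of 2) and the higher level was no less than 5 TPM. Macrophage and fibroblast markers followed the labels: of 20 macrophage markers, 20 were called higher in BMDM, with summed levels of 39662 TPM in BMDM and 54.3 TPM in MEF. Of 16 fibroblast markers, 15 were called higher in MEF, and their summed levels were 2667 TPM in BMDM, nearly all of it S100a4 at 2645 TPM, and 17211 TPM in MEF. In bulk RNA, more cells of a type and more RNA per cell cannot be told apart.

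The highest of the 6 was Ms4a7, which reached 1139 TPM in BMDM, against 0.870 TPM in MEF. It ranked at place 130 of the 34295 genes in BMDM and at place 12746 in MEF. Its log2 ratio of TPM plus 1 was 9.25, and 10 genes of the table, itself included, had a ratio that large. Its gene lies on the minus strand at chr19:11321039-11336146 of GRCm38 (ENSMUSG00000024672). The ratio of the TPM themselves was 1309, and like those of the other members it rests on a fibroblast level below 1 TPM. The stretch before the RefSeq start of Ms4a7 (GRCm38.p6, chr19:11336147-11336396, minus strand, read 5′ to 3′ toward the gene) is shown because this is the most abundant member. The capitals mark the letters GGAAGT, found here on the reverse strand, 10 to 15 bases before the start.
Ms4a7: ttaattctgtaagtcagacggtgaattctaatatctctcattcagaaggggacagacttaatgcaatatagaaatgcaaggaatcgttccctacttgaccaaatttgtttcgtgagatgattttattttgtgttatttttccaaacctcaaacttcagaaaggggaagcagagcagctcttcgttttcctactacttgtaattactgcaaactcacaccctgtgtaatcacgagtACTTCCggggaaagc

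The Ms4a6 genes came next, from 130.4 to 393 TPM in BMDM. Ms4a6d had 393 TPM in BMDM and 0.427 TPM in MEF, with a log2 ratio of 8.11. In mouse macrophages its product has been described in a complex with the receptor VSIG4. Ms4a6c had 274 TPM in BMDM and 0.183 TPM in MEF, with a log2 ratio of 7.86. Ms4a6b had 130.4 TPM in BMDM and 0.118 TPM in MEF, with a log2 ratio of 6.88. Within BMDM, Ms4a6d was thus 1.43-fold above Ms4a6c and Ms4a6c was 2.10-fold above Ms4a6b, and with 1 library it is unknown whether these neighbours in the order differ beyond the spread between cultures. Together the 3 Ms4a6 genes held 797.9 TPM in BMDM, which was 39.4% of all MS4A transcripts there, and 0.728 TPM in MEF. Ms4a6c lies on the plus strand at chr19:11469366-11482192 (ENSMUSG00000079419), Ms4a6b on the plus strand at chr19:11516512-11531256 (ENSMUSG00000024677) and Ms4a6d on the minus strand at chr19:11586604-11604849 (ENSMUSG00000024679).

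The stretches before Ms4a6c and Ms4a6b are shown because these neighbours, read in the same direction, share sequence ahead of their starts as well as in their coding parts. Each is the window of 250 bases before the RefSeq start, ended at the first base in it that GENCODE M21 annotates as exon: chr19:11469118-11469365 for Ms4a6c and chr19:11518309-11518452 for Ms4a6b (GRCm38.p6, both plus strand). For Ms4a6b the sources place the start differently, and this stretch lies inside the GENCODE gene, downstream of its outermost start. The capitals mark the longest run common to the stretches shown, 24 bases. In the best alignment 113 of 138 aligned bases matched. A longer common run of 48 bases ended 2 bases before the Ms4a6c start and 71 bases before the RefSeq start of Ms4a6b, where part of it falls into a GENCODE exon of Ms4a6b and is not shown.
Ms4a6c: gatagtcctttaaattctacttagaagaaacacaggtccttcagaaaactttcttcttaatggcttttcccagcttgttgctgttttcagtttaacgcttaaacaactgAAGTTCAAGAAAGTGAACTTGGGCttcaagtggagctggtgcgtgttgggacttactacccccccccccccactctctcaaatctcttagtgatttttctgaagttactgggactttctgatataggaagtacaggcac
Ms4a6b: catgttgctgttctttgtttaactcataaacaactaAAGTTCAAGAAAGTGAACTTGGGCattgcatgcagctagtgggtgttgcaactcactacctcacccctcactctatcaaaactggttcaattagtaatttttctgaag

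The Ms4a4 genes were lower and far less even. Ms4a4c had 52.3 TPM in BMDM and was listed at 0 in MEF, so no ratio of TPM is given for it. Ms4a4a had 7.97 TPM in BMDM and 0.393 TPM in MEF, with a log2 ratio of 2.69 and a ratio of TPM of 20.3. It is the member closest to the limits of the size rule and the only one of the 6 below 50 TPM in BMDM. The remaining Ms4a4 genes of the table were not called: Ms4a4b had 2.20 TPM in BMDM and was listed at 0 in MEF, and Ms4a4d had 0.0685 TPM in BMDM and 0.464 TPM in MEF. The 4 Ms4a4 genes summed to 62.5 TPM in BMDM and 0.857 TPM in MEF, most of the BMDM sum being Ms4a4c. Ms4a4a lies on the plus strand at chr19:11375523-11392790 (ENSMUSG00000101389) and Ms4a4c on the plus strand at chr19:11404770-11427246 (ENSMUSG00000024675).

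Ms4a4c and Ms4a4b are the closest pair of coding sequences in the family, with 91.8% of 681 coding bases matching, yet within BMDM the level of Ms4a4c was 23.7-fold that of Ms4a4b. The stretches before their RefSeq starts are shown for that contrast: chr19:11407411-11407660 for Ms4a4c and chr19:11443308-11443552 for Ms4a4b (GRCm38.p6, both plus strand). The stretch of Ms4a4c lies inside the gene as GENCODE M21 annotates it, whose outermost start is farther upstream, so distances for this pair hold for the RefSeq starts alone. Here the capitals mark GAGGAA, a core of the motif of the myeloid factor PU.1, which both hold, 56 to 61 bases before the RefSeq start in Ms4a4c and 59 to 64 bases in Ms4a4b. In the best alignment 179 of 232 aligned bases matched.
Ms4a4c: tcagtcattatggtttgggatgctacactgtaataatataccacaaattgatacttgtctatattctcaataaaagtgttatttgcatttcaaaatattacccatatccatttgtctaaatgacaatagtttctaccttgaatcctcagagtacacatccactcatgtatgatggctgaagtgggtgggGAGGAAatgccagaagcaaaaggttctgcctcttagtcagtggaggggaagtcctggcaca
Ms4a4b: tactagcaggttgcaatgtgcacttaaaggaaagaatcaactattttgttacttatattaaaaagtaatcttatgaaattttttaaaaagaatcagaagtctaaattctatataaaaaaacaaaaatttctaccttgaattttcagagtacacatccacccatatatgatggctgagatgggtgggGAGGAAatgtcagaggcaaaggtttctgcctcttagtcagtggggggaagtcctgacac

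**Figure D1:**
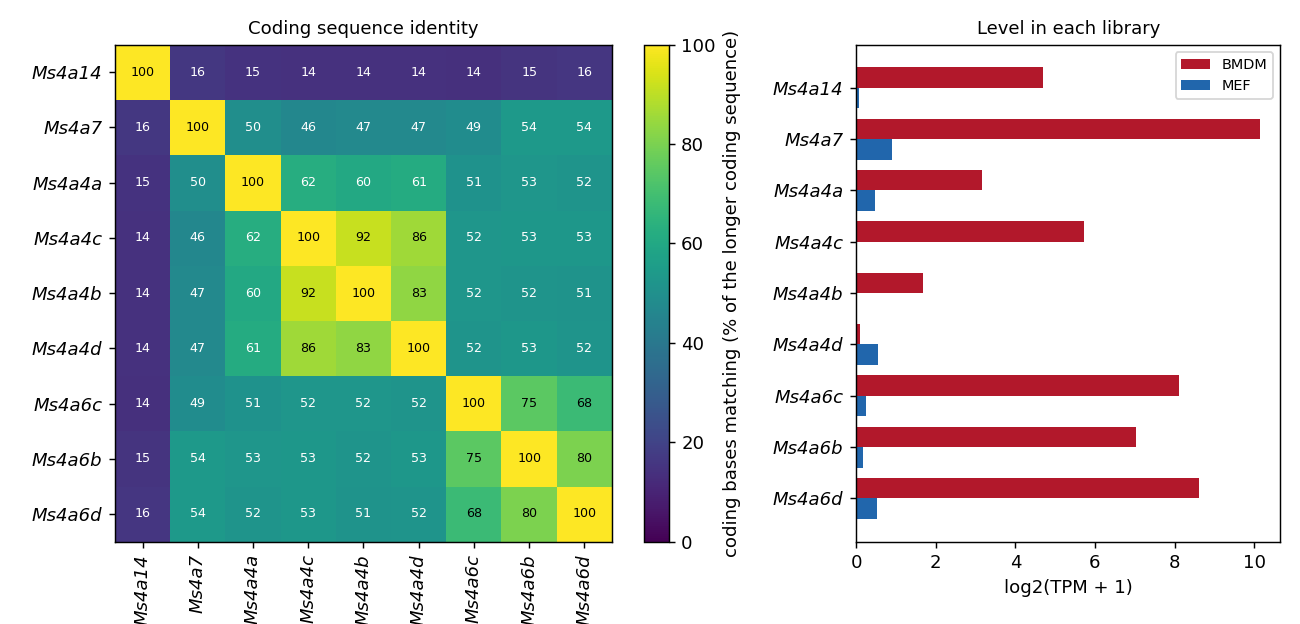
Left, percent of coding bases that match between 9 MS4A genes, relative to the longer coding sequence of each pair. Right, the level of each gene as log2(TPM + 1), with BMDM bars above MEF bars, 1 library each; Ms4a4b and Ms4a4d stand at 2.20 and 0.0685 TPM in BMDM although 91.8% and 85.6% of their bases match Ms4a4c.

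Coding sequences of the longest annotated coding transcript fell into subgroups that follow the names. Percents here are of the longer coding sequence of each pair. Among the Ms4a4 genes, Ms4a4c matched Ms4a4d at 85.6% of coding bases and Ms4a4b matched Ms4a4d at 83.4%, while Ms4a4a matched Ms4a4c, Ms4a4d and Ms4a4b at 62.3%, 61.5% and 60.3%. Among the Ms4a6 genes, Ms4a6b matched Ms4a6d at 80.1%, Ms4a6c matched Ms4a6b at 74.8% and Ms4a6c matched Ms4a6d at 68.1%. Ms4a7 had no such close match: its highest was Ms4a10 at 54.2%, followed by Ms4a6b and Ms4a6d at 53.9% each and Ms4a12 at 53.2%. This order depends on length and does not hold over aligned bases alone. Of those, 436 of 696 matched Ms4a10, 433 of 675 matched Ms4a6b and 433 of 678 matched Ms4a6d. The encoded proteins of the 6 members are similar in length, from 217 codons in Ms4a6c to 267 in Ms4a7.

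Such likeness matters for the counting of reads, since short matches between paralogs can be divided between genes in more than one way. Of the 31-base words in the annotated transcripts of Ms4a4c, 17.1% also occur in transcripts of another gene, mostly Ms4a4b. The share was 7.90% for Ms4a6b, 8.11% for Ms4a6d, 1.42% for Ms4a7 and 0% for Ms4a4a. For Ms4a6c it was 58.1% when both strands are read and 21.9% on the same strand, because the opposite-strand transcript BE692007 overlaps it. BE692007 has no row under that symbol among the genes of the table. Whether its transcript was in the set used for quantification, and how strand was used there, is not known here. The level of Ms4a6c is uncertain to that extent.

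**Figure D2:**
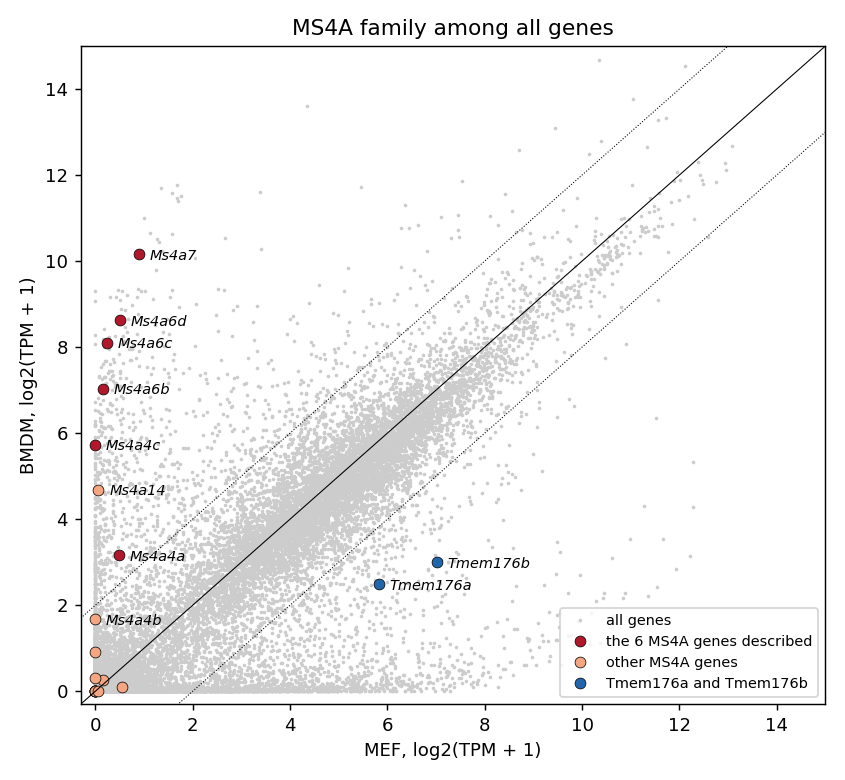
Each grey point is 1 of 34295 genes, with log2(TPM + 1) in BMDM on the vertical and in MEF on the horizontal axis, 1 library each; dotted lines mark 4-fold differences of TPM plus 1. The 6 MS4A genes lie along the left edge, from Ms4a7 at 1139 TPM to Ms4a4a at 7.97 TPM in BMDM, and Tmem176a and Tmem176b lie on the opposite side of the diagonal.

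By the size rule, 6 of the 6 members were higher in BMDM, where 2.86% of all genes of the table and 4.34% of its 21540 protein-coding genes were. Since this contrast chose the members, nothing is read from that count. Their levels in BMDM spanned 143-fold, and 4 of the 6 reached 100 TPM. Their summed level was 1997 TPM in BMDM and 1.99 TPM in MEF. The median log2 ratio over the 6 was 7.37, against 0 over all protein-coding genes, many of which are silent in both libraries, and -0.29 over the 12746 at 1 TPM or more in either.

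Of the whole family of 19 genes, 7 were higher in BMDM and 0 in MEF, where 4.67% of all genes and 7.18% of protein-coding genes were higher. The seventh was Ms4a14, which is not among the 6 members, at 24.8 TPM in BMDM and 0.0463 TPM in MEF. That level lies above Ms4a4a. Its coding sequence of 3699 bases is far longer than those of the members. The family sum was 2025 TPM in BMDM, of which Ms4a7 alone made up 56.2% and the 6 members 98.6%, and 2.66 TPM in MEF. In MEF no MS4A gene reached 1 TPM, whereas 8 did in BMDM. Of the 19, 11 were below 1 TPM in both libraries and 6 were listed at 0 in both: Ms4a8a, Ms4a10, Ms4a12, Ms4a13, Ms4a15 and Ms4a18. The family median log2 ratio was 0.30.

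The MS4A genes that mark other blood lineages were near 0. Ms4a1 had 0.192 TPM in BMDM and 0.122 TPM in MEF. Ms4a2 was listed at 0 in BMDM and had 0.0404 TPM in MEF. Ms4a3 had 0.895 TPM in BMDM and was listed at 0 in MEF. Ms4a8a, described in mouse macrophages under alternative activation, was among those listed at 0 in both. Ms4a4b, the T cell gene, was the one of these above 1 TPM, at 2.20 TPM in BMDM.

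The related genes Tmem176a and Tmem176b, whose products share the MS4A fold and act as cation channels of inner membranes, lay on the other side. Tmem176b had 6.97 TPM in BMDM and 128 TPM in MEF, and Tmem176a had 4.60 TPM in BMDM and 55.5 TPM in MEF. Their log2 ratios were -4.02 and -3.33, and both were called higher in MEF. They lie next to each other on chromosome 6, away from the MS4A cluster.

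**Figure D3:**
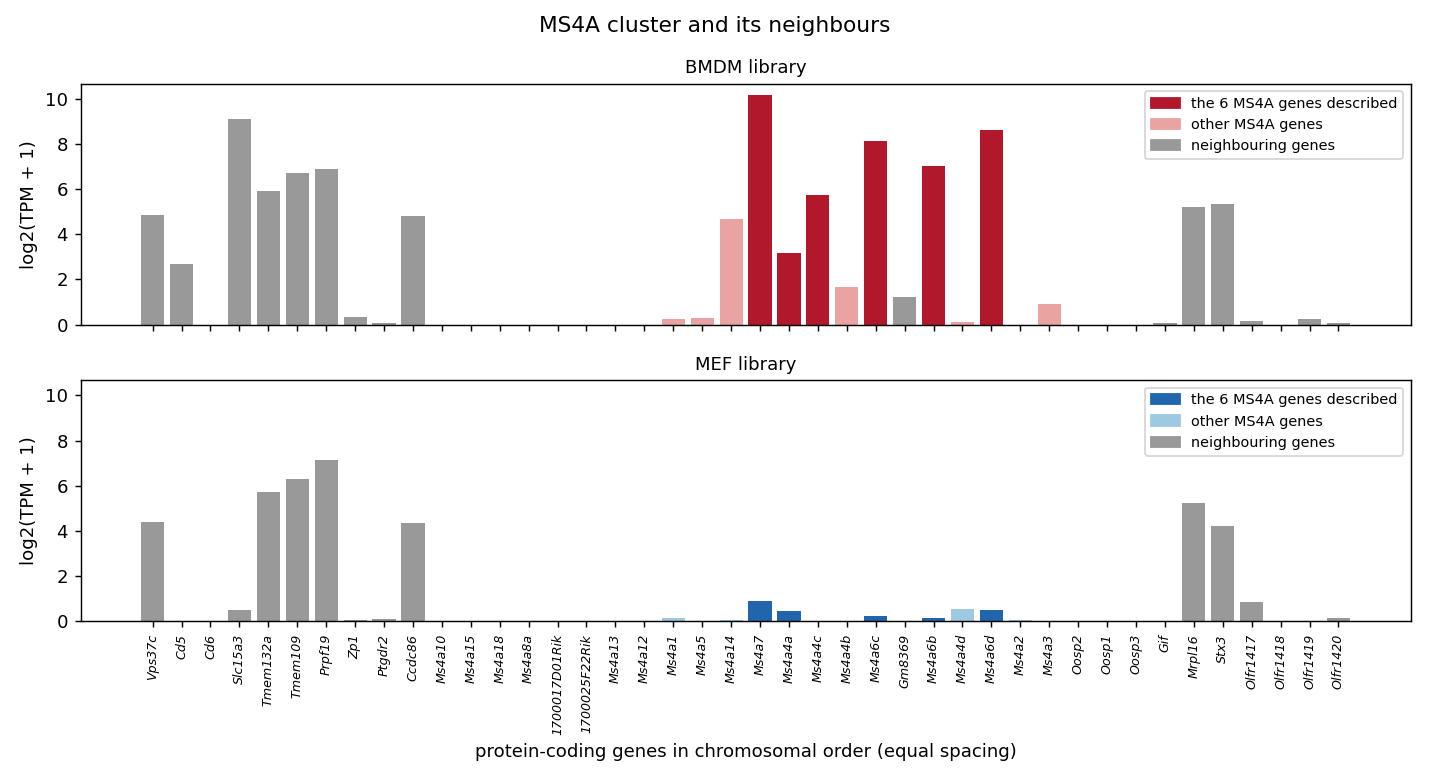
Levels as log2(TPM + 1) of the 19 MS4A genes, the 3 genes between them and 10 protein-coding genes on each side, in chromosomal order and equally spaced, with BMDM above and MEF below, 1 library each. The high BMDM bars from Ms4a14 to Ms4a6d stand together, from 7.97 to 1139 TPM for the called genes, with Ms4a4b and Ms4a4d low among them.

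All 19 family genes form a cluster on chromosome 19, from 10962293 to 11640851 in GENCODE M21 (GRCm38), and the genes with macrophage transcripts were adjacent in it. Read in chromosomal order, the 9 family genes from Ms4a14 to Ms4a6d held all 7 that were called, in a stretch of 304 kb. This stretch was marked out after the values were seen. Within it only Ms4a4b and Ms4a4d were not called. The 10 family genes outside it reached at most 0.895 TPM, that of Ms4a3, in either library. The called genes lay on both strands: Ms4a14, Ms4a7 and Ms4a6d on the minus strand, and Ms4a4a, Ms4a4c, Ms4a6c and Ms4a6b on the plus strand.

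Most genes around the cluster did not share the pattern. Of 20 protein-coding genes, 10 on each side, 2 were higher in BMDM and 0 in MEF. Among all protein-coding genes of the table, 4.34% were higher in BMDM and 7.18% in MEF. With so few neighbours nothing further is read from their count. Slc15a3, which encodes a peptide and histidine transporter of the lysosome, had 544 TPM in BMDM and 0.414 TPM in MEF. Cd5, known from T cells, had 5.46 TPM in BMDM and was listed at 0 in MEF. The nearest gene on the Ms4a10 side, Ccdc86, had 27.4 TPM in BMDM and 19.2 TPM in MEF, and the nearest beyond Ms4a3, the oocyte gene Oosp2, was listed at 0 in both. Of the 3 genes between family members, 0 were called in either direction, and the one inside the macrophage stretch, Gm8369, had 1.30 TPM in BMDM and was listed at 0 in MEF.

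The faint fibroblast levels of the members were set beside those of the macrophage genes used to clear the culture. As a percent of the BMDM level, the MEF level was 0.0667% for Ms4a6c, 0.0764% for Ms4a7, 0.0902% for Ms4a6b and 0.109% for Ms4a6d. For Ptprc, Itgam and Adgre1, which encode CD45, CD11b and F4/80, it ran from 0.114% to 0.249%. Over the 20 macrophage markers the median was 0.106%, with a range from 0% for Aif1 to 20.8% for Mertk. Ms4a4a stood apart from the other members at 4.93%, which rests on 0.393 TPM in MEF. Whether macrophage RNA in the fibroblast library gives these levels was not tested.

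Across the table, the genes nearest to each member in log2(TPM + 1) over the 2 libraries were taken as those with the most similar pattern. Ms4a6d lay nearest to Adgre1, at a distance of 0.037, with 399 TPM in BMDM and 0.457 TPM in MEF, and next to the complement receptor gene C3ar1. Ms4a6b lay nearest to the prostaglandin synthase gene Hpgds, at 131 TPM in BMDM and 0.109 TPM in MEF, and next to Slamf7. Ms4a6c was nearest to Cd300c2 and Ly86, Ms4a4c to Ebi3 and Aoah, and Ms4a4a to Ccrl2 and Cxcl2. Ms4a7 had no close match, its nearest genes Laptm5 and Cd52 lying at distances of 0.47 and 0.49. A distance over 2 libraries says little beyond the pair of levels.

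Genes of known or reported MS4A partners and their signalling chains were mostly on the macrophage side. Of 18 listed genes, 12 were higher in BMDM and 0 in MEF, and 6 did not pass the rule. The median log2 ratio of the 18 was 3.63. Of all genes of the table, 2.86% were higher in BMDM and 4.67% in MEF, and of protein-coding genes 4.34% and 7.18%. Trem2, Tyrobp, Fcer1g and Fcgr1 are also among the macrophage markers counted above. The list was chosen with earlier results known, so nothing further is read from its count. The highest were the signalling adaptors Fcer1g and Tyrobp, at 3346 and 3085 TPM in BMDM and at 1.54 and 2.00 TPM in MEF. Trem2, the lipid receptor tied to MS4A4A in humans, had 1452 TPM in BMDM and 1.41 TPM in MEF. The Fc receptor gene Fcgr3 had 647 TPM in BMDM and 0.827 TPM in MEF. The following partners were named after their values were seen. The tetraspanin gene Cd9 and the adhesion receptor gene Cd44 were high in both libraries, with 748 and 222 TPM in BMDM and 381 and 185 TPM in MEF, and did not pass the rule. Clec7a, which encodes dectin-1, had 6.88 TPM in BMDM and 0.341 TPM in MEF, levels close to those of Ms4a4a. Vsig4, the reported partner of Ms4a6d, had 0.218 TPM in BMDM and was listed at 0 in MEF. Fcer1a, which encodes the IgE-binding chain that assembles with the Ms4a2 product, was listed at 0 in both.

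Transcription factors of macrophages were read as a further list. Of 21 listed genes, 10 were higher in BMDM and 0 in MEF, and 11 did not pass the rule. The median log2 ratio of the 21 was 1.83. For this list and those below, the share of all protein-coding genes was 4.34% higher in BMDM and 7.18% higher in MEF. These lists too were chosen with earlier results known, and their counts are descriptions. Spi1, which encodes PU.1, had 355 TPM in BMDM and 0.529 TPM in MEF. Irf5 and Irf8, interferon regulatory factors of myeloid cells, had 168 and 141 TPM in BMDM and 3.75 and 0.319 TPM in MEF.

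Short motifs were then searched in the sequence before the RefSeq starts, whole windows being used even where GENCODE places an exon in them. RefSeq windows of 250 bases (GRCm38.p6) were found for 5 of the 6 members, Ms4a6d being without one, and for 12 of the 13 other family genes. GAGGAA, searched on both strands, was found in 1 of the 5 members, Ms4a4c, and in 3 of the 12 others, while 23.3% of all 32851 windows hold it. The AP-1 letters TGANTCA were found in 1 member, Ms4a7, at its second start, and in 3 of the 12 others, against 6.75% of all windows. TATAAA, the C/EBP letters TTNNGCAA, the STAT letters TTCNNNGAA and the IRF motif were found in 0 of the 5, against 12.4%, 9.56%, 7.02% and 2.98% of all windows. Of the 12 others, 3, 2, 0 and 1 held them, in the same order. GGAAGT, the core of many ETS factor sites, was added after the sequences were seen and can overlap GAGGAA in the letters GGAA. It was found in 4 of the 5 members and in 4 of the 12 others, against 19.7% of all windows. In Ms4a6b both matches lie in the part of the window that GENCODE annotates as exon, which is not printed above. At the start of Ms4a7 shown above, and in Ms4a4c and Ms4a6c, GGAAGT lies within 16 bases of the RefSeq start. The window at the second start of Ms4a7 does not hold it. In Ms4a4b, at 2.20 TPM in BMDM, it lies within 19 bases. The match of Ms4a6c and the farther match of Ms4a6b lie in their common run of 48 bases, so they are not separate finds. A match is a description of letters and not of a bound site.

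Marker genes of other blood cells were mostly low, apart from some of granulocytes and monocytes. Of 8 B cell markers 1 was higher in BMDM, Cd22 at 5.76 TPM in BMDM and listed at 0 in MEF, and their summed levels were 10.3 TPM in BMDM and 0.191 TPM in MEF, with Blk listed at 0 in both. Of 9 T cell markers 0 were higher in BMDM, and the 1 higher in MEF was Thy1, which fibroblasts also express, at 2.58 TPM in BMDM and 642 TPM in MEF. Their summed levels were 9.35 TPM in BMDM and 643 TPM in MEF, with Cd3g listed at 0 in both. Of 9 mast cell and basophil markers 0 were higher in BMDM, where they summed to 0.877 TPM, and 2 were higher in MEF, where they summed to 45.7 TPM: Mcpt8, listed at 0 in BMDM and at 30.8 TPM in MEF, and Gata2, at 0.0629 TPM in BMDM and 14.5 TPM in MEF. Fcer1a, Cpa3 and Tpsb2 were listed at 0 in both.

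Of 10 genes of granulocytes and their progenitors, 4 were higher in BMDM, and the list summed to 489.7 TPM in BMDM and 2.25 TPM in MEF. They were S100a9 at 268 TPM in BMDM and listed at 0 in MEF, S100a8 at 157 TPM in BMDM and 1.85 TPM in MEF, Ngp at 48.3 TPM in BMDM and Camp at 5.17 TPM in BMDM, both listed at 0 in MEF. Ly6g was listed at 0 in both libraries. Of 8 monocyte genes, 4 were higher in BMDM, with Ly6c2 at 83.5 TPM in BMDM and 1.19 TPM in MEF, Chil3 at 34.0 TPM in BMDM and 0.325 TPM in MEF, Ccr2 at 32.5 TPM in BMDM and 0.0637 TPM in MEF, and F13a1 at 23.8 TPM in BMDM and 0.196 TPM in MEF. The matrix gene Vcan, in the same list, was higher in MEF, at 0.276 TPM in BMDM and 29.6 TPM in MEF. The list summed to 244 TPM in BMDM and 50.3 TPM in MEF. The part of such cells in the levels of the MS4A members was not tested. Of 8 dendritic cell markers 1 was higher in BMDM, Itgax at 6.96 TPM in BMDM and 0.0971 TPM in MEF, and Cd209a was listed at 0 in both; the list summed to 8.92 TPM in BMDM and 1.21 TPM in MEF.

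**Figure D4:**
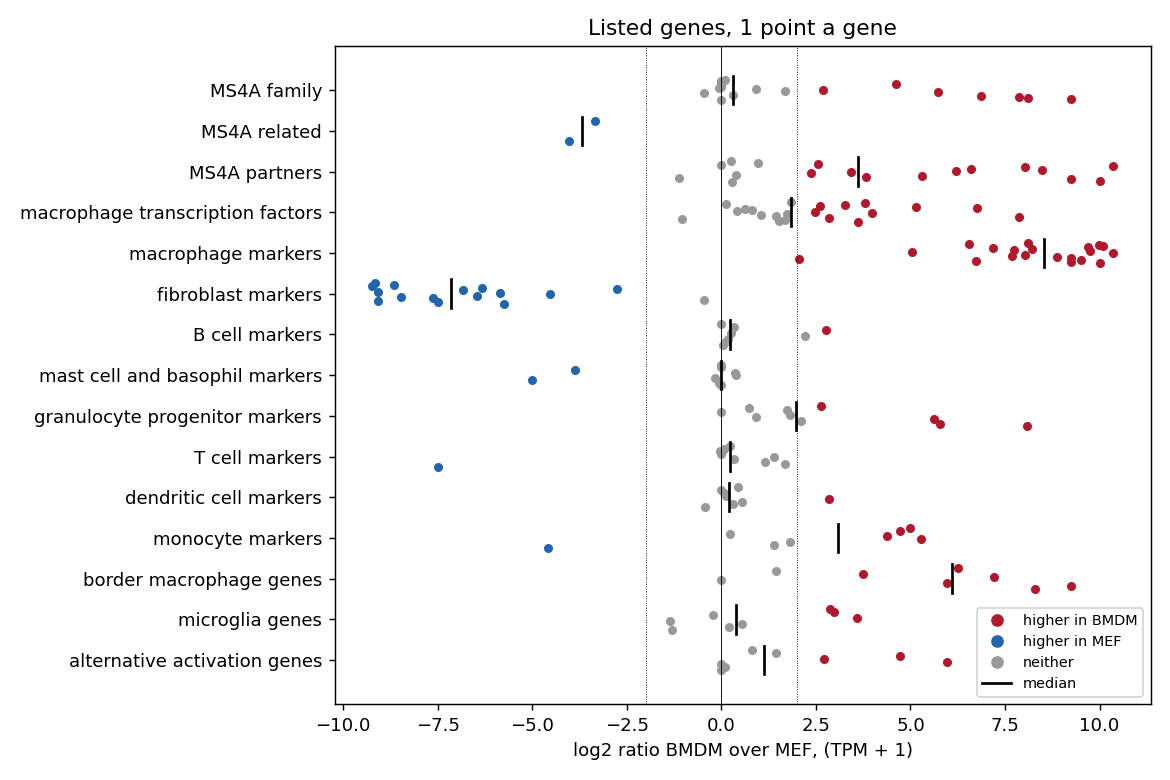
Each point is 1 listed gene, placed by its log2 ratio of TPM plus 1 of BMDM over MEF; red points were called higher in BMDM, blue points higher in MEF, grey points neither, black bars are medians, and dotted lines mark the limit of 2. The Tmem176 genes lie left of the limit, while 7 of 19 MS4A genes and 12 of 18 partner genes are red.

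Ms4a7 was also read within lists of tissue macrophage programmes. Of 8 genes used for border macrophages of the brain, Ms4a7 among them, 6 were higher in BMDM and 0 in MEF, with a median log2 ratio of 6.11. The lipid carrier gene Apoe had 3368 TPM in BMDM and 43.1 TPM in MEF, and Pf4 had 633 TPM in BMDM and 1.02 TPM in MEF. Clec12a had 157 TPM in BMDM and 0.0605 TPM in MEF, whereas Lyve1 was listed at 0 in both. Of 8 microglia genes, 3 were higher in BMDM and 0 in MEF, with a median of 0.37. Among them were P2ry12 at 11.1 TPM in BMDM and Gpr34 at 6.26 TPM in BMDM, both listed at 0 in MEF. Of 8 genes of alternative activation, 3 were higher in BMDM and 0 in MEF, with a median of 1.13: the mannose receptor gene Mrc1 at 89.4 TPM in BMDM and 0.452 TPM in MEF, Chil3, and Clec10a at 5.83 TPM in BMDM and 0.0415 TPM in MEF. Retnla was listed at 0 in both, as was Ms4a8a.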

How the data were processed

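Poly(A) libraries were made with a stranded Illumina kit and sequenced in paired reads of 76 bp, per the labels' protocols. The authors quantified them with kallisto 0.43.1 on GRCm38, per the submitters' processing notes; transcript set, gene summing and use of strand: not given in the sources used here. No unit is named in the file; the deposited columns were taken as TPM because each is non-negative and totals slightly less than 1000000, and their read depth is unknown. Rows sharing a symbol were added, giving 34295 genes from 34456 rows; each MS4A gene had 1 row. Of the symbols, 93.9% matched GENCODE M21, which gave coordinates and transcripts.

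No test was possible with 1 library a group. The size rule used a pseudocount of 1, a 4-fold difference and a minimum of 5 TPM. A run on simulated data checked only that its code calls large changes in genes well above the minimum. It says nothing of the spread between cultures or of genes near the limits, such as Ms4a4a. The members, lists and motifs were chosen with earlier results of these data known. Named genes are the members, family genes at 1 TPM or more, lineage MS4A genes, the 3 sort genes, the nearest and the called neighbours, up to 4 called genes per list and direction, and the 2 genes nearest to each member; further names, such as the genes listed at 0, were added once values had been seen. Not every gene taken by this rule is reported here. Upstream sequences are from RefSeq. Coding sequences were aligned end to end with Biopython 1.88, in Python 3.11.15 with pandas 2.3.3.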

Additional observations from a re-analysis of the deposited data

How the results depend on the processing

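Of the 6 members, 5 stayed above the size rule under all 11 alternatives: other pseudocounts, minimum levels and fold limits, scaling by the median of ratios, rescaling after removal of mitochondrial genes and of each library's top 50, taking 1 row per symbol, and restriction to protein-coding genes. The exception was Ms4a4a. With a pseudocount of 5 its log2 ratio was 1.27, and with a minimum of 10 TPM or an 8-fold limit its ratio of 2.69 no longer passed. Only the pseudocounts and rescalings changed the ratios of the members. Other minimum levels and fold limits, 1 row per symbol and the restriction to protein-coding genes left the ratios as they were. As the members were selected on this contrast, their passing is a description. The number of MS4A genes higher in BMDM was 6 or 7 and that higher in MEF 0 under each alternative, and both Tmem176 genes stayed higher in MEF. Counts over all genes moved more. A pseudocount of 5 gave 652 genes higher in BMDM and 896 higher in MEF, a 2-fold limit 1698 and 2637, and an 8-fold limit 635 higher in BMDM. With the 2-fold limit, 1 listed transcription factor was higher in MEF, in place of 0. Over the 8363 genes that reached 5 TPM in BMDM and in MEF, the median log2 ratio of the TPM themselves was -0.18, small beside the ratios of the members. No paired analysis was possible because each group has 1 library. Without replicates or read depth, the precision of each level is unknown, most of all below 1 TPM in MEF, where the ratios of the members have their denominators.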
